A study of Mus musculus with 12 samples.

Results

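The mitosis and G2/M genes are 40 genes whose products prepare a cell for division and carry it out. They were listed by name for that role. A listed gene was read where the platform annotation gave a probe set its symbol and no other, which held for 39 of the 40 among 18193 genes measured. The remaining gene, Ccnb1, which encodes cyclin B1, is not analysed here. RNA of cultured mouse pancreatic cancer cells was measured on Affymetrix arrays, 12 in all, in 4 groups of 3 biological replicates. The mt-CCs were cultured from a tumor with Pdx1-Cre and LSL-Trp53R172H/+ in its genotype, and carry mutant p53. The fl-CCs were cultured from a tumor with Pdx1-Cre and LSL-Trp53fl/+ in its genotype, and the labels give them as null for p53. The other 2 groups are fl-CCs that received either the empty vector (EV) or human mutant p53 R175H, the counterpart of mouse p53 R172H. All groups share Cre under the Pdx1 promoter, which is active in the pancreatic lineage, and growth in DMEM with 10% FBS to 60% confluency. The EV and p53 R175H cells were in addition kept in 0.6 mg/ml G418, which selects for the vector, whereas the parental fl-CCs and mt-CCs were not. Each genotype is 1 cell line, so all p-values below measure the spread between cultures of a line and not between tumors. Trp53 itself was not analysed here.

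Entry into mitosis is driven by CDK1 bound to cyclin B, which the phosphatases CDC25B and CDC25C activate. Polo-like and Aurora kinases then act on centrosomes, spindle and kinetochores, and the spindle checkpoint holds back the anaphase-promoting complex (APC/C) until every chromosome is attached. Because most of the transcripts involved are made in G2 and M phase and broken down afterwards, their amount in a culture depends on how many cells are cycling and on how strongly each cell transcribes them. In bulk RNA, fewer cells in G2 and M and less of the transcript per cell cannot be told apart. Many of the promoters share a pair of short elements, the CCAAT box, which binds NF-Y, and the cell cycle genes homology region (CHR), through which MuvB complexes repress the genes in resting cells and, together with B-MYB and FOXM1, activate them in G2.

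The values are log2 RMA values, so a difference of 1 is a doubling. They were compared with limma, and a gene was called higher or lower where its p, adjusted by Benjamini and Hochberg's method over all 45037 probe sets, was 0.05 or less. A gene with several probe sets was read at the one with the highest mean. Standard errors (SE) and SDs rest on n = 3 arrays per group throughout. Replicate arrays correlated at 0.994 to 0.996 over all probe sets. All 6 epithelial markers read at or above a log2 value of 5, taken as the edge of background, in every group, whereas all 4 endothelial markers lay below it in all groups. Of 6 leukocyte markers 4 lay below it in every group, Ptprc among them, whereas Cd68 and Cd14 read at or above it in all groups. The log2 of the summed linear values of the leukocyte list was 9.78 to 10.28. Of 8 fibroblast markers 5 lay below the log2 value of 5 (4 in p53 R175H cells), Col1a2 and Dcn among them in all groups. Col1a1 read at or above it in all groups. One array stood apart in the genes described here. In fl-CCs replicate 1, all 39 genes lay above their group mean, against 2 and 0 of 39 in replicates 2 and 3 and 49.4% of all genes on the same array. Counts and medians of comparisons with the fl-CCs, and the differences of the genes whose arrays are listed below, are therefore also given without it.

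The promoters are shown first for 8 genes, all of them from those whose windows hold both elements, to let the shared elements be seen. None of the 9 genes with a window lacking one or both, Birc5 and Cenpe among them, is printed. RefSeq windows of 300 bases around the transcript start (GRCm38.p6) were read for 31 of the 39 genes. Those of Foxm1, Aurkb, Incenp, Kif20a, Tpx2, Pbk, Cdc25c and Ccna2 were not used here. The letters CCAAT on either strand occurred in 24 of the 31 windows (77.4%), against 37.9% of the windows of all 27025 genes. The CHR letters TTTGAA or TTCGAA on either strand occurred in 25 of 31 (80.6%), against 19.4% of all. Both together occurred in 22 of 31 (71.0%), against 7.7% of all, and at least 2 CCAAT boxes occurred in 16 of 31 (51.6%), against 12.2%. The E2F letters searched (TTTGGCGC, TTTCCCGC, TTTCGCGC and TTTGCCGC, both strands) were in 1 window of 31, that of Cdk1, and in 2.32% of all. None of these words is contained in another. Most CHR matches lay at the transcript start. In 23 of 31 windows (74.2%) one began between 30 bases before the start and base 50 after it, a range chosen after the positions were seen, against 4.1% of all windows. A match is only a run of letters, and binding was not measured. The stretches below run 5′ to 3′ on the gene's strand from 120 bases before to 30 bases after the start, with CCAAT and CHR letters of either strand in capitals.
Cdk1, chr10:69352883-69353032, minus strand: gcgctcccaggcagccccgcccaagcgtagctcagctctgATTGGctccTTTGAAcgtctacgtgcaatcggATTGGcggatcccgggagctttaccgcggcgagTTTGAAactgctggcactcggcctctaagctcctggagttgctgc
Ttk, chr9:83834569-83834718, plus strand: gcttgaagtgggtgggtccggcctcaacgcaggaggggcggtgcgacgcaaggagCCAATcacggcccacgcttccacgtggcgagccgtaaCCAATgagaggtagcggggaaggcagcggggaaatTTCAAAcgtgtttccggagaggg
Ube2c, chr2:164769809-164769958, plus strand: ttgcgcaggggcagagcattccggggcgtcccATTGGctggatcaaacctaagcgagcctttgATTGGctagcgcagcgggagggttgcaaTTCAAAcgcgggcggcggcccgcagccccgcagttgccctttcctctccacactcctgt
Kif4, chrX:100625945-100626094, plus strand: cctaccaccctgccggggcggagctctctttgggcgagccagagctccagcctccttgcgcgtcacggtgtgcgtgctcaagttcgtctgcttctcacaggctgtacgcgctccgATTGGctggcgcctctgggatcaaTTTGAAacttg
Plk1, chr7:122159315-122159464, plus strand: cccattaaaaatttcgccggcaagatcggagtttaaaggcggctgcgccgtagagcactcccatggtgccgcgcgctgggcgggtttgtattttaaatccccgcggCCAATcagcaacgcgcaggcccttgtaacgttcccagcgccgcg
Ect2, chr3:27153849-27153998, minus strand: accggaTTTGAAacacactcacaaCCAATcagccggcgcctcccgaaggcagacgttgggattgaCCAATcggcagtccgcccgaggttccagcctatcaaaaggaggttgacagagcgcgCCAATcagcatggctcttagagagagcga
Cenpf, chr1:189688057-189688206, minus strand: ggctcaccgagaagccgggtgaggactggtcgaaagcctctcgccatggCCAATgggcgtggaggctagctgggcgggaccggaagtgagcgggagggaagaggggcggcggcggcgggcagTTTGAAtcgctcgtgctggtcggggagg
Racgap1, chr15:99651627-99651776, minus strand: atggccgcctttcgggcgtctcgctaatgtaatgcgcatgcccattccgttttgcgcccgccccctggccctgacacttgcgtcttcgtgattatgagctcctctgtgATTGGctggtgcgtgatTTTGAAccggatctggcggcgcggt
Cdk1 (the mitotic kinase), Ttk (a checkpoint kinase), Ube2c (the ubiquitin donor of the APC/C) and Kif4 (a chromosome motor) carry both elements in the printed stretch, and their transcripts all fell in EV cells, as described below. In Plk1, the gene that fell most, the CHR letters TTTGAA begin at base 31, just past the stretch shown. Ect2 has 3 CCAAT boxes and Cenpf and Racgap1 carry a CHR within a few bases of the start, although these genes went opposite ways in mt-CCs. The 22 genes with both elements had a median log2 difference of -0.83 between EV and fl-CCs, and the 9 genes with a window lacking one or both had -0.82.

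The transfected control cells and their parental line were compared first, because this pair separated the genes almost completely. In EV cells, 36 of 39 genes were lower than in fl-CCs (92.3%), where 7.24% of all genes were called lower, and none was higher (0 at an unadjusted p under 0.05 as well, limma), where 7.84% of all genes were called higher. All 39 differences lay below 0, with a median of -0.82 and a range from -1.34 to -0.43 on the log2 scale, against a median over all genes of -0.01. In all 39 genes every EV array read below every fl-CCs array, as was the case in that direction for 18.1% of all genes. The 3 genes that were not called were the cytokinesis motor gene Kif23 (-0.45 ± 0.15, SE), the centrosome kinase gene Nek2 (-0.43 ± 0.21) and the mitotic kinase gene Pbk (-0.70 ± 0.23). A second probe set of Kif23 was called lower (-0.52 ± 0.14, adjusted p = 0.0302, limma). Without fl-CCs replicate 1, 33 genes were lower and the median was -0.62, where 5.46% of all genes were called lower. Cdk1, Cenpf and Foxm1 were then no longer called, and 28 of the 36 calls were kept whichever of the 12 arrays was left out. Transfection, the vector and G418 selection came together in the EV cells and cannot be told apart.

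**Figure D1:**
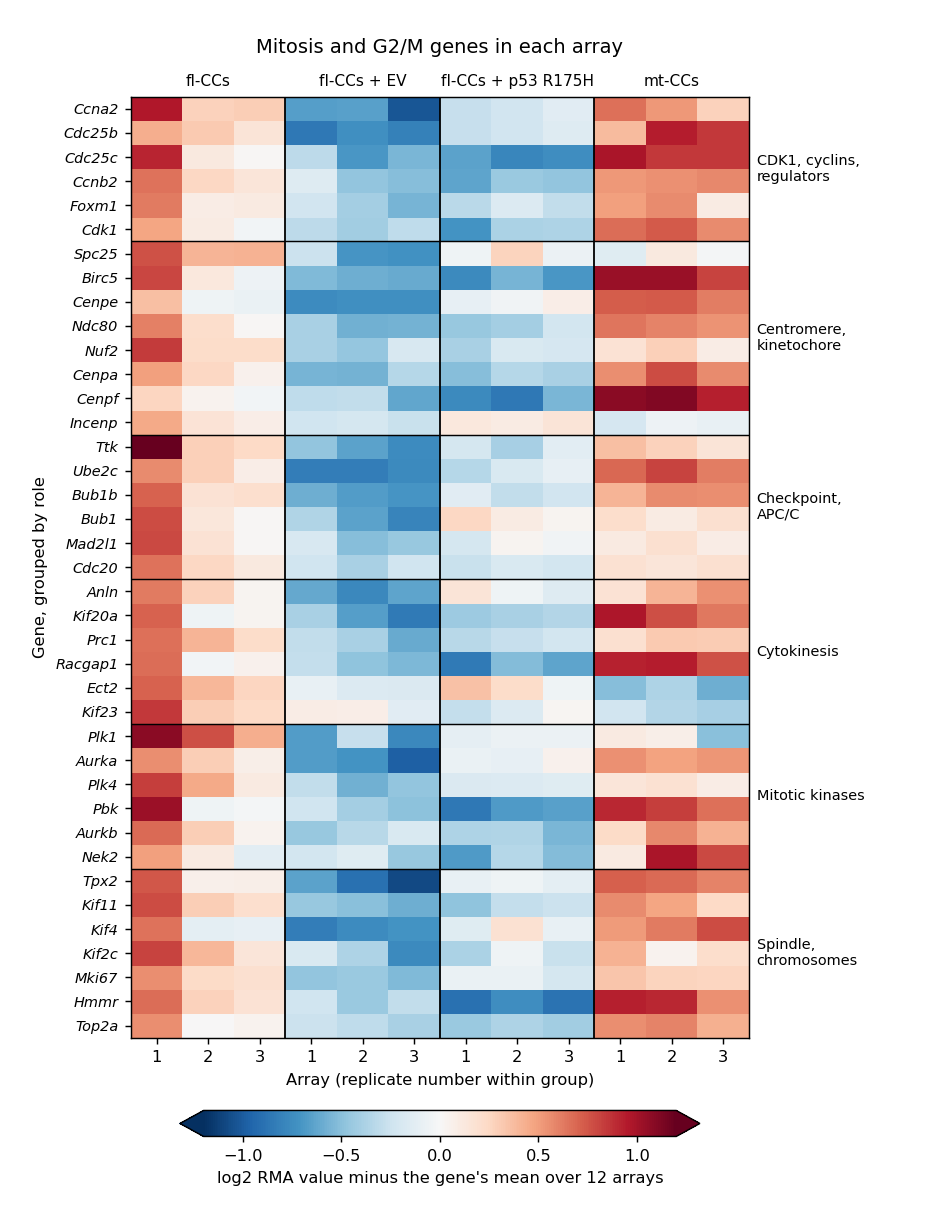
Heat map of 39 mitosis and G2/M genes (rows, grouped by role) in 12 arrays (columns, by group and replicate number), colored by the log2 RMA value minus the gene's mean over all arrays. The 3 fl-CCs + EV columns are below the gene's mean in nearly every row, and fl-CCs replicate 1 is above it in all 39.

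Among the regulators of mitotic entry, all 6 measured genes were lower in EV cells. Ccna2, which encodes cyclin A2, read 11.87, 11.19 and 11.20 in fl-CCs and 10.25, 10.26 and 9.88 with EV, so that the groups lay far apart. The difference was -1.29 ± 0.18 (SE, adjusted p = 0.00059, limma), or 2.45-fold, and -1.07 ± 0.14 without fl-CCs replicate 1. Cdk1 itself moved less, from 10.93, 10.56 and 10.43 to 10.15, 10.04 and 10.16 (-0.52 ± 0.13, adjusted p = 0.0252), and its call was lost without fl-CCs replicate 1 (-0.38 ± 0.12, adjusted p = 0.0806) or without any 1 of the EV arrays. Cdc25b, an activator of CDK1, differed by -1.10 ± 0.13 and Cdc25c, its relative, by -0.87 ± 0.19. Ccnb2, the measured B-type cyclin gene, differed by -0.73 ± 0.14. Foxm1, which encodes a transcription factor of these genes, differed by -0.67 ± 0.16 (adjusted p = 0.0179), and by -0.50 ± 0.15 (adjusted p = 0.0604) without fl-CCs replicate 1.

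Plk1, the polo-like kinase that acts from mitotic entry to cytokinesis, fell most of all 39 genes. It read 8.98, 8.67 and 8.34 in fl-CCs and 7.23, 7.63 and 7.12 with EV, a difference of -1.34 ± 0.19 (adjusted p = 0.00084, limma) or 2.53-fold, and -1.18 ± 0.20 without fl-CCs replicate 1. Of the other kinases, Aurka, which matures centrosomes, differed by -1.10 ± 0.12, Plk4, which starts centriole duplication, by -0.91 ± 0.15 and Aurkb, the kinase of the chromosomal passenger complex, by -0.66 ± 0.15. All 6 genes of the checkpoint and the APC/C were lower, with a median of -0.96. The checkpoint kinase gene Ttk read 9.77, 8.77 and 8.73 in fl-CCs and 8.02, 7.84 and 7.73 with EV (-1.23 ± 0.22, adjusted p = 0.00359), and fl-CCs replicate 1 lay well above the other fl-CCs arrays, without which the difference was -0.89 ± 0.12. Ube2c gave tighter values, 11.87, 11.59 and 11.39 against 10.47, 10.47 and 10.54, and a difference of -1.12 ± 0.12 (adjusted p = 9.14e-05), or -0.99 ± 0.11 without that array. The checkpoint genes Bub1b and Bub1 differed by -1.01 ± 0.13 and -0.90 ± 0.18, Mad2l1 by -0.72 ± 0.17, and Cdc20, the activator of the APC/C that the checkpoint blocks, by -0.63 ± 0.12.

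All 8 genes of the centromere and kinetochore were lower in EV cells, from -1.09 ± 0.15 in Spc25 to -0.47 ± 0.10 in Incenp. Spc25, Ndc80 and Nuf2, which encode 3 subunits of the NDC80 complex that grips microtubules, differed by -1.09, -0.79 and -0.77. All 7 genes of the spindle and chromosomes were lower too. Tpx2, which activates Aurora A on the spindle, read 10.71, 10.02 and 10.04 in fl-CCs and 9.32, 9.07 and 8.88 with EV, a difference of -1.17 ± 0.17 (adjusted p = 0.000812), or -0.94 ± 0.12 without fl-CCs replicate 1. The motor genes Kif11, Kif4 and Kif2c differed by -0.94, -0.91 and -0.89, and Top2a, which untangles sister DNA, by -0.52 ± 0.13. Mki67 encodes Ki67, the proliferation marker that coats mitotic chromosomes. It read 12.57, 12.24 and 12.20 in fl-CCs and 11.54, 11.57 and 11.48 with EV, without overlap, and its difference of -0.81 ± 0.10 (adjusted p = 0.000289) became -0.70 ± 0.08 without that array. Of 6 cytokinesis genes, 5 were lower, led by the contractile ring gene Anln with -0.98 ± 0.15 at the probe set used. Its second probe set gave 0.04 ± 0.18 and was not called.

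**Figure D2:**
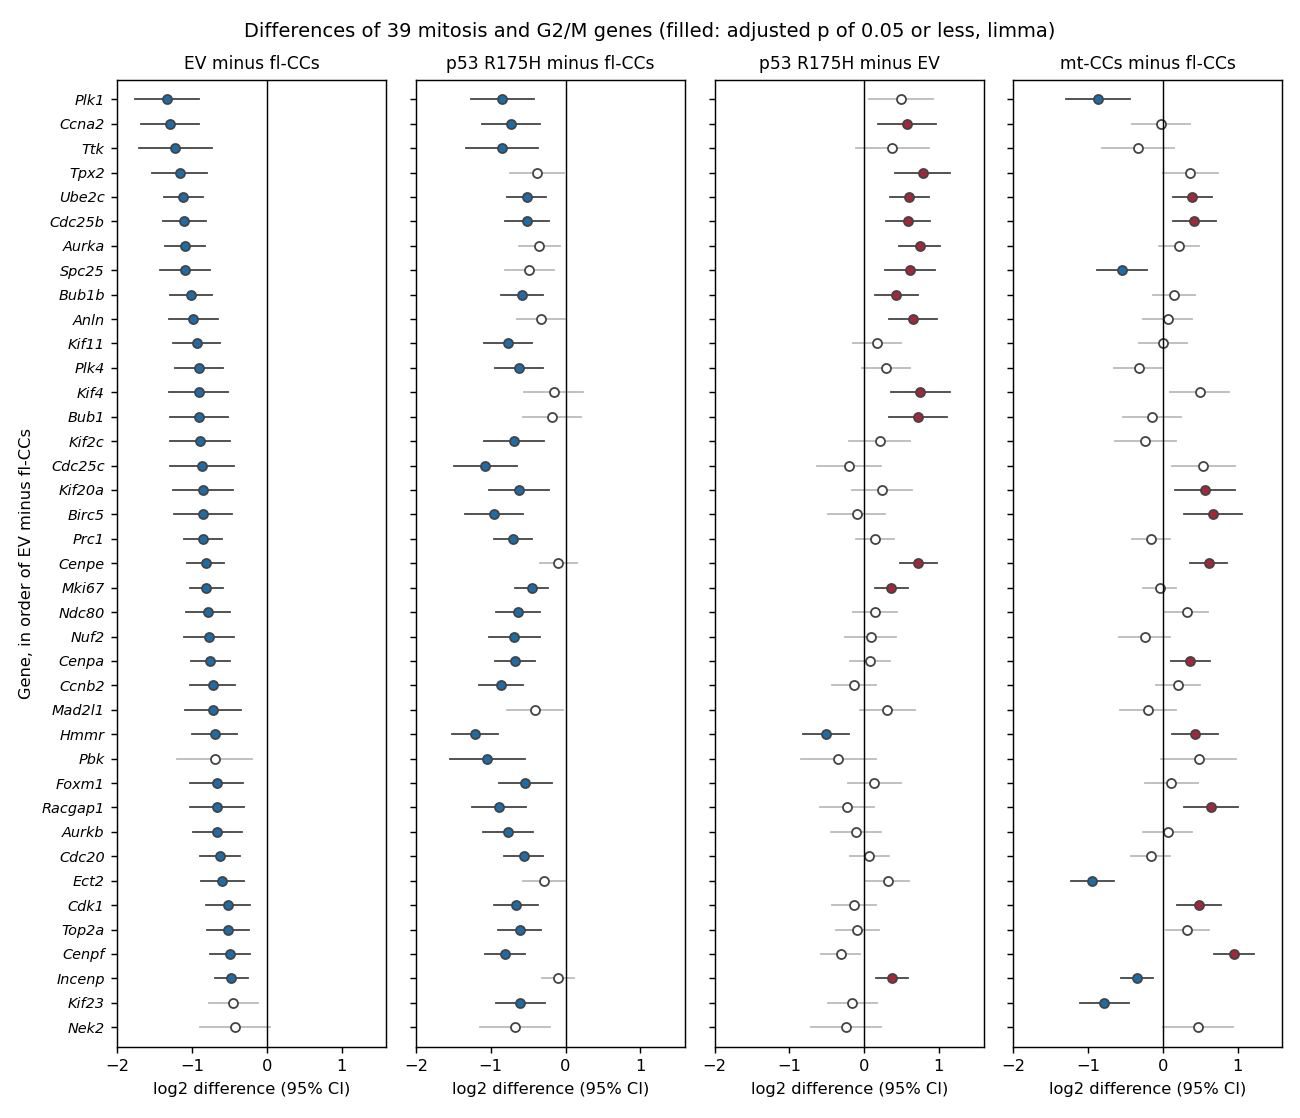
Log2 differences of the 39 genes in 4 comparisons, each with its 95% confidence interval from limma, in the order of EV minus fl-CCs (filled points, adjusted p of 0.05 or less, blue lower and red higher). All 39 points lie left of 0 in both comparisons of transfected cells with fl-CCs, and p53 R175H minus EV splits the genes into 13 higher, 1 lower and 25 not called.

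Part of these genes was higher in p53 R175H cells than in EV cells. Of 39 genes, 13 were higher in p53 R175H cells (33.3%), where 13.0% of all genes were called higher, and 1 was lower, where 12.1% of all genes were called lower. The median difference was 0.21 and the range ran from -0.52 to 0.79. Tpx2 read 9.88, 9.91 and 9.84 with p53 R175H against 9.32, 9.07 and 8.88 with EV (0.79 ± 0.17, adjusted p = 0.00576, limma). Kif4, which moves along chromosome arms, read 7.30, 7.63 and 7.35 against 6.61, 6.68 and 6.72 (0.75 ± 0.18, adjusted p = 0.011), and Aurka 8.71, 8.69 and 8.84 against 8.12, 8.07 and 7.81 (0.74 ± 0.12, adjusted p = 0.00118). In all 3 genes the groups did not overlap. Cenpe, the kinetochore motor that aligns chromosomes, was at 10.43, 10.50 and 10.61 against 9.78, 9.80 and 9.80 (0.72 ± 0.11, adjusted p = 0.000783). The other genes called higher were Ccna2, Cdc25b, Incenp, Spc25, Bub1, Bub1b, Ube2c, Anln and Mki67. Of the genes with several probe sets, Ccna2, Incenp, Spc25, Bub1, Anln and Aurka were called at the one used only. The second probe set of Anln gave -0.21 ± 0.18, and the other probe sets of Incenp gave 0.20, -0.15, 0.03 and -0.32. The other probe set of Aurka read below 5. Mki67 differed by 0.36 ± 0.10 (adjusted p = 0.0247).

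Other genes of the same process did not follow. Hmmr, a spindle assembly factor, was the 1 gene that fell, with 7.40, 7.55 and 7.41 in p53 R175H cells against 7.85 to 8.05 in EV cells (-0.52 ± 0.14, adjusted p = 0.0213, limma). Its call was lost without EV replicate 1 or 3 or without p53 R175H replicate 1 or 3. Cdk1 differed by -0.14 ± 0.13 (95% interval -0.44 to 0.15, adjusted p = 0.547), Ccnb2 by -0.14 ± 0.14, Birc5 by -0.10 ± 0.18 and Top2a by -0.09 ± 0.13, and Foxm1 by 0.14 ± 0.16. Plk1, which fell most with EV, differed by 0.49 ± 0.19 and missed the threshold (adjusted p = 0.102). Of the 13 genes called higher, 7 were called whichever array was left out (Tpx2, Kif4, Aurka, Cenpe, Cdc25b, Ube2c and Anln). The other 6 were all lost without EV replicate 3, which left 7 genes higher.

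Against the parental fl-CCs, p53 R175H cells were still lower in 28 of 39 genes, a comparison added after the data were seen. The background was 8.87% of all genes, and no gene was higher (0 at an unadjusted p under 0.05, limma), where 9.75% of all were. All 39 differences lay below 0, with a median of -0.63 and a range from -1.21 to -0.10. Hmmr was lowest of all, at -1.21 ± 0.14 (adjusted p = 0.00015), followed by Cdc25c at -1.07 ± 0.19 and Pbk at -1.05 ± 0.23. Cdk1 differed by -0.67 ± 0.13, Plk1 by -0.85 ± 0.19 and Mki67 by -0.45 ± 0.10. The 3 comparisons of these groups share arrays, so their calls are only set side by side. Of the 13 genes lower in EV cells and higher with p53 R175H than with EV, 5 remained lower than in fl-CCs (Ccna2, Cdc25b, Bub1b, Ube2c and Mki67). The other 8 were not called against fl-CCs, with differences from -0.48 ± 0.15 (Spc25) to -0.10 ± 0.11 (Cenpe). For Cenpe the 95% interval ran from -0.34 to 0.15 and for Incenp from -0.32 to 0.11. Incenp was called lower at other probe sets, with -0.60 ± 0.18 (adjusted p = 0.0415, limma) and -0.76 ± 0.12 (adjusted p = 0.00109). At its remaining probe sets it was not called (0.11 ± 0.17 and -0.34 ± 0.19). A second probe set of Tpx2, 1 of the 8, was called lower (-0.38 ± 0.12, adjusted p = 0.0487). In 26 genes both transfected groups were lower than fl-CCs, and the share of all genes called in both is not given here. Without fl-CCs replicate 1, 23 genes were lower with p53 R175H, where 6.88% of all genes were called lower, and the median was -0.45. Plk1 (-0.69 ± 0.20, adjusted p = 0.0504), Cdc25b, Kif20a, Kif2c and Foxm1 were then no longer called, and Hmmr differed by -1.07 ± 0.13, Cdc25c by -0.79 ± 0.12, Pbk by -0.69 ± 0.11, Cdk1 by -0.52 ± 0.12 and Mki67 by -0.34 ± 0.08.

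**Figure D3:**
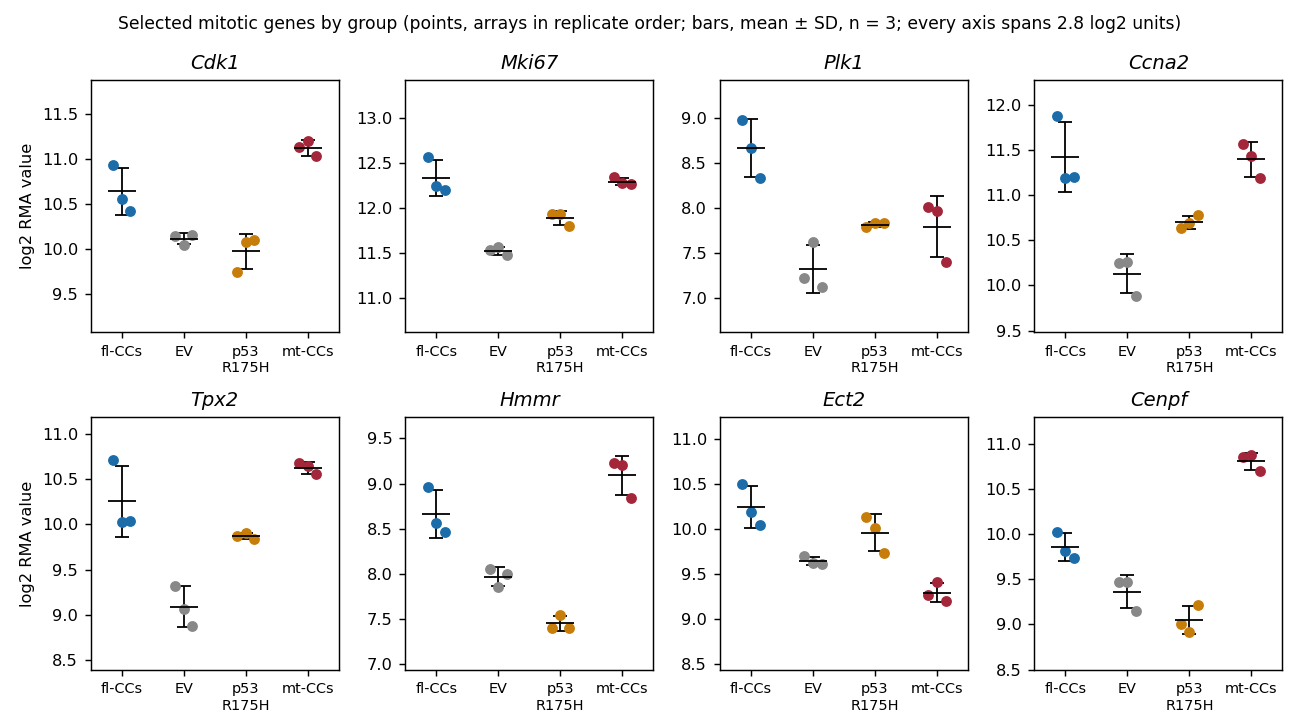
Log2 RMA values of 8 mitotic genes in each array, by group (points, arrays; bars, mean ± SD, n = 3), with every vertical axis spanning the same number of log2 units. Tpx2 and Ccna2 lie lowest with EV, Hmmr and Cenpf lowest with p53 R175H, and Ect2 lowest in mt-CCs.

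In contrast, mt-CCs and fl-CCs differed in both directions. Of 39 genes, 10 were higher in mt-CCs (25.6%), where 18.3% of all genes were called higher, 5 were lower (12.8%), where 17.7% of all were called lower, and 24 were not called. The median was 0.15 and the range ran from -0.94 to 0.95. These shares are near those of all genes. The counts also moved with single arrays. Without fl-CCs replicate 1 there were 19 genes higher and 3 lower with a median of 0.32, where 17.3% and 16.2% of all genes were called. Without fl-CCs replicate 2 or 3, or without mt-CCs replicate 2, there were 4 higher, and without mt-CCs replicate 1 there were 3 lower. The calls kept in every one of these fits were Cenpf, Birc5, Racgap1 and Cenpe as higher and Ect2, Plk1 and Kif23 as lower.

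Cenpf, a kinetochore and nuclear matrix protein gene of G2 and M, rose most in mt-CCs. It read 10.85, 10.88 and 10.70 there and 10.03, 9.81 and 9.74 in fl-CCs, a difference of 0.95 ± 0.12 (adjusted p = 6.89e-05, limma) without overlap, and 1.04 ± 0.13 without fl-CCs replicate 1. Another of its probe sets gave 0.62 ± 0.17, and the remaining one read below 5 in fl-CCs. Birc5, which encodes survivin of the chromosomal passenger complex, read 11.23, 11.24 and 11.02 against 11.00, 10.33 and 10.14 (0.67 ± 0.18, adjusted p = 0.0114, and 0.93 ± 0.11 without fl-CCs replicate 1). Racgap1, a subunit of centralspindlin, read 10.10, 10.12 and 9.94 against 9.84, 9.15 and 9.23 (0.65 ± 0.17, adjusted p = 0.00988, and 0.87 ± 0.12 without that array), while its second probe set gave 0.16 ± 0.16. Cenpe was at 11.26, 11.26 and 11.14 against 10.89, 10.48 and 10.45 (0.62 ± 0.11, adjusted p = 0.00119, and 0.76 ± 0.09 without it). Cdk1 read 11.13, 11.20 and 11.03 in mt-CCs (0.48 ± 0.13, adjusted p = 0.0162, and 0.63 ± 0.12 without fl-CCs replicate 1), and the call was lost without fl-CCs replicate 2 or 3 or mt-CCs replicate 2. Hmmr differed by 0.43 ± 0.14 (adjusted p = 0.037) at the probe set used, and its other 4 probe sets gave 0.15, 0.03, -0.07 and 0.02, none of them called. The call was lost without fl-CCs replicate 2 or 3 or mt-CCs replicate 1 or 2.

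The genes that fell in mt-CCs included partners of those that rose. Ect2, the exchange factor that centralspindlin brings to the midzone to start the cleavage furrow, read 9.27, 9.41 and 9.20 in mt-CCs and 10.49, 10.18 and 10.04 in fl-CCs (-0.94 ± 0.13, adjusted p = 0.00013, limma, and -0.82 ± 0.12 without fl-CCs replicate 1). Kif23, the motor subunit that forms centralspindlin with Racgap1, read 10.34, 10.22 and 10.17 against 11.41, 10.86 and 10.80 (-0.78 ± 0.15, adjusted p = 0.00158, and -0.59 ± 0.11 without that array). Both were lower in mt-CCs than in any other group on average. Plk1 was at 8.01, 7.97 and 7.40 in mt-CCs (-0.87 ± 0.19, adjusted p = 0.00433, and -0.71 ± 0.20 without fl-CCs replicate 1) and Spc25 at 9.42, 9.68 and 9.54 (-0.55 ± 0.15, adjusted p = 0.0155). Spc25 lost its call without fl-CCs replicate 1 (-0.43 ± 0.16, adjusted p = 0.0662) or mt-CCs replicate 1. Mki67 read 12.34, 12.28 and 12.27 in mt-CCs, a difference of -0.04 ± 0.10 (95% interval -0.26 to 0.18, adjusted p = 0.804), and Foxm1 differed by 0.11 ± 0.16 (adjusted p = 0.674). Epithelial markers moved in this comparison as well, with 5 of 6 lower in mt-CCs and the log2 of their summed linear values between 14.98 and 15.08 against 15.60 to 15.68 in fl-CCs. Of 8 fibroblast markers 5 were higher and 1 lower, with a summed level of 9.59 to 9.76 against 7.71 to 8.22. Their part in these differences was not tested. In EV minus fl-CCs, 1 of 8 fibroblast markers was higher and 1 of 6 leukocyte markers lower, and the summed epithelial level was 15.58 to 15.65 with EV. With p53 R175H it was 15.38 to 15.40, with 1 of the 6 epithelial markers higher and 2 lower than with EV.

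The difference between the line with endogenous mutant p53 and the fl-CCs, which come from different tumors, was set against that between p53 R175H and EV cells in the difference of differences, (mt-CCs minus fl-CCs) minus (p53 R175H minus EV). In this test 5 of 39 genes were above 0, where 16.1% of all genes were called above, and 8 were below, where 15.9% of all were called below. The 13 together are near the share of all genes. Without fl-CCs replicate 1, 10 genes were above 0 and 5 below, where 15.8% and 15.4% of all genes were called. Cenpf (1.27 ± 0.17, adjusted p = 0.000149, limma) and Hmmr (0.94 ± 0.20, adjusted p = 0.00354) were higher in mt-CCs and lower or not called with p53 R175H. At its other 4 probe sets Hmmr gave 0.12 to 0.45, none of them called. Plk1 (-1.36 ± 0.27, adjusted p = 0.00265), Ect2 (-1.26 ± 0.18, adjusted p = 0.000268) and Spc25 (-1.16 ± 0.21, adjusted p = 0.00149) were lower in mt-CCs and had positive differences with p53 R175H. Cenpe was higher in both settings (0.62 and 0.72). The counts ranged from 3 to 10 above 0 and from 4 to 10 below 0 when each array was left out in turn, and Cenpf, Hmmr and Racgap1 above and Ect2, Incenp, Plk1 and Spc25 below were called in all of these fits. These calls rest on the probe set used, and Racgap1, Incenp and Spc25 were not called at their other probe sets with all arrays.

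Ordered by group mean, EV cells were the lowest group in 26 of 39 genes, p53 R175H cells in 11 and mt-CCs in 2. The highest group was mt-CCs in 24 genes and fl-CCs in 15. The same orders over all genes are not given here. The median of the 39 genes, each taken relative to its mean over all arrays, was 0.67, 0.23 and 0.08 in fl-CCs replicates 1, 2 and 3, between -0.56 and -0.36 in EV cells, between -0.33 and -0.22 in p53 R175H cells and between 0.49 and 0.57 in mt-CCs. Over all genes the same median stayed within 0.03 of 0 in every array. Single probe sets were read as well. Of 87 probe sets of these genes, 61 were lower in EV cells and 0 were higher, and no gene had probe sets called in opposite directions in any of these comparisons. The share of all probe sets called lower is not given here. Between mt-CCs and fl-CCs, the probe sets of some genes differed in size, sign or call. The second probe set of Anln gave 1.42 ± 0.18, where the one used gave 0.07 ± 0.15. The second probe set of Foxm1 gave -0.53 ± 0.19 (adjusted p = 0.0473, limma) where the one used gave 0.11. Tpx2 gave 0.81 ± 0.12 (adjusted p = 0.000178) at its second probe set and 0.37 ± 0.17, not called, at the one used. Cdc20 gave -0.42 ± 0.12 (adjusted p = 0.0222) at another probe set and -0.16 ± 0.12, not called, at the one used.

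**Figure D4:**
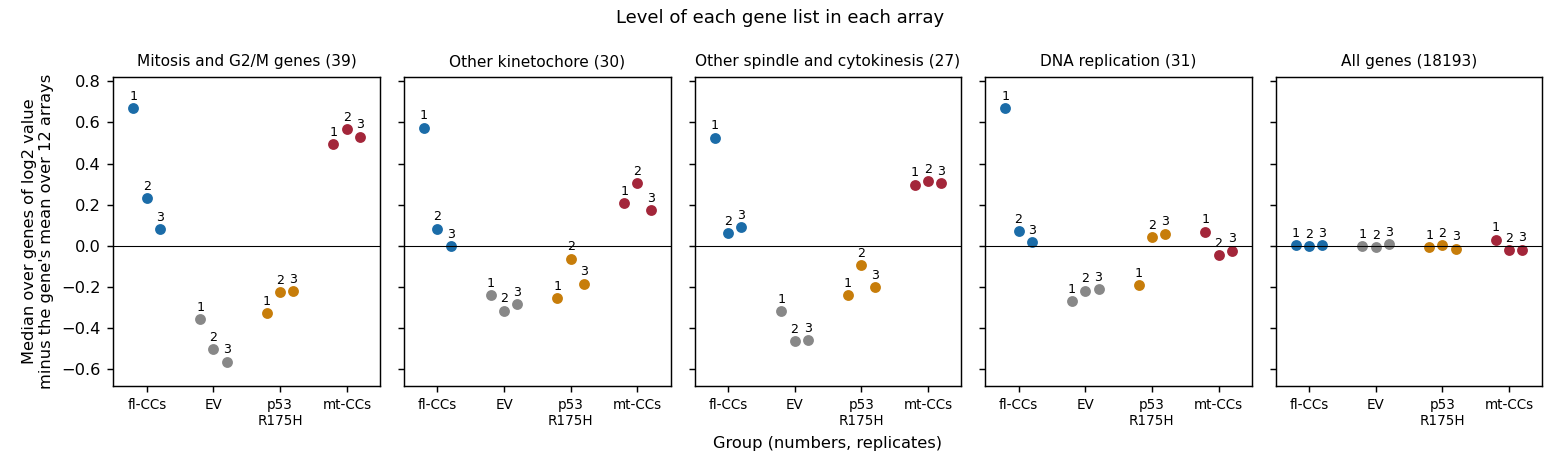
Median over the genes of a list of the log2 value minus the gene's mean over 12 arrays, for each array (points, numbered by replicate) and 5 lists. In the mitosis and G2/M genes fl-CCs replicate 1 is at 0.67 and the EV arrays are at or below -0.36, while all genes stay near 0.

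Genes around this group were read from 7 further lists. Their counts are to be read against the shares of all genes, 7.24% lower and 7.84% higher with EV, 13.0% higher with p53 R175H than with EV, and 18.3% higher and 17.7% lower in mt-CCs. Of 27 other spindle and cytokinesis genes, 16 were lower in EV cells than in fl-CCs, with a median of -0.64, and 9 were higher with p53 R175H than with EV. Between mt-CCs and fl-CCs 5 were higher, led by Aspm, a spindle pole gene (0.59 ± 0.11), and Dlgap5, which stabilizes kinetochore fibers (0.58 ± 0.13), and 3 were lower, led by Numa1, which anchors spindle poles (-0.82 ± 0.10), and the importin gene Kpna2 (-0.36 ± 0.11). Of 30 other kinetochore and centromere genes, 14 were lower and 1 higher with EV, with a median of -0.51. In mt-CCs, 2 of them were higher, Cenpi (0.80 ± 0.23) and the checkpoint scaffold gene Kntc1 (0.54 ± 0.19, adjusted p = 0.0491, limma), and 5 were lower, among them Zwilch, which acts in the same scaffold as Kntc1 (-0.60 ± 0.19), and Cenpt (-0.59 ± 0.12). The reading of fl-CCs replicate 1 extended to these lists, with 30 of 30 kinetochore and 25 of 27 spindle genes above their group mean on that array. Without it, 13 of the 27 spindle genes were lower with EV (median -0.44), and 11 were higher and 1 lower in mt-CCs. Of the 30 kinetochore genes 12 were then lower with EV (median -0.32), and 7 were higher and 3 lower in mt-CCs. Kpna2 (adjusted p = 0.0954) and Zwilch (adjusted p = 0.064) lost their calls, and Kntc1 read 0.83 ± 0.10.

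Of 21 cohesin and condensin genes, 8 were lower and 1 was higher, with a median of -0.32. The condensin II gene Ncapd3 (-0.89 ± 0.16) and the cohesin acetyltransferase gene Esco2 (-0.79 ± 0.18) were lower in mt-CCs than in fl-CCs, and Pttg1, which encodes securin (0.92 ± 0.08), and the cohesin gene Stag1 (0.64 ± 0.10) were higher. Pttg1 was also the gene of that list that was higher with EV (0.39 ± 0.08, adjusted p = 0.00909). Of 15 other genes of the G2/M switch, 4 were lower with EV. They included Wee1, the kinase that holds CDK1 inactive, which was at 9.01 ± 0.16 (SD) in fl-CCs, 8.07 ± 0.18 with EV, 8.81 ± 0.07 with p53 R175H and 7.78 ± 0.15 in mt-CCs. Its difference was -1.22 ± 0.12 (SE, adjusted p = 6.84e-06) between mt-CCs and fl-CCs and 0.75 ± 0.12 between p53 R175H and EV. Ppp2r2d, a regulatory subunit of the phosphatase that reverses CDK1 phosphorylation, fell by 0.33 in mt-CCs, and Ccnb3, called higher there, lay below a log2 value of 5 in all groups. Without fl-CCs replicate 1, 7 of the 21 cohesin and condensin genes and 4 of the 15 switch genes were lower with EV, Wee1 differed by -1.13 ± 0.12 in mt-CCs, and among the genes named here Ccnb3 lost its call.

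Of 17 genes of the anaphase-promoting complex and its regulators, 4 were lower with EV, with a median of -0.09. Its inhibitor gene Fbxo5 (0.97 ± 0.27, adjusted p = 0.0175, limma) and the subunit gene Anapc16 (0.93 ± 0.12) were higher in mt-CCs, and the subunit genes Anapc15 (-0.61 ± 0.11) and Cdc26 (-0.25 ± 0.08) were lower. Of 13 genes of the DREAM and MuvB complexes and B-Myb, which act through the CHR and E2F elements, 3 were lower with EV. In mt-CCs the MuvB subunit gene Lin37 was higher (0.97 ± 0.08), and Tfdp2, an E2F partner (-1.47 ± 0.10), and E2f5 (-0.41 ± 0.12) were lower. DNA replication belongs to S phase, and its genes were read for comparison. Of 31, 13 were lower with EV, with a median of -0.52, 9 were lower in mt-CCs and 1 was higher. Orc1, which marks replication origins (-1.34 ± 0.27), and Mcm2, a subunit of the replicative helicase (-0.71 ± 0.14), fell in mt-CCs, and Rfc4, of the clamp loader (0.45 ± 0.14), rose. On fl-CCs replicate 1 all 31 lay above their group mean, as the mitotic genes did. Without that array 9 of the 31 were lower with EV (median -0.27), 5 were lower and 6 higher in mt-CCs, and Orc1 differed by -1.08 ± 0.27. Of the anaphase-promoting complex 3 genes were then lower with EV and Cdc26 was no longer called in mt-CCs (adjusted p = 0.0664), and 0 of the 13 DREAM and MuvB genes were lower with EV (5 at an unadjusted p under 0.05, limma).

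**Figure D5:**
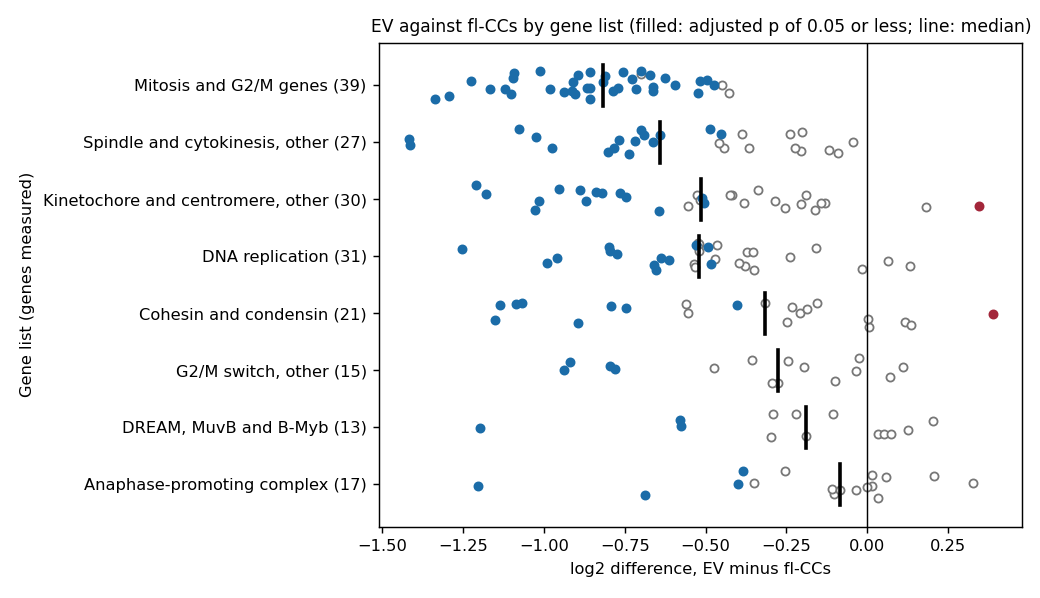
Log2 differences between EV and fl-CCs for each gene of 8 lists (points, filled where the adjusted p was 0.05 or less, blue lower and red higher; vertical lines, list medians). The 39 mitosis and G2/M genes all lie below 0 with a median of -0.82, and the medians of the other lists run from -0.64 to -0.09.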

How the data were processed

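RNA was read on Affymetrix mouse arrays. The deposited values are log2 values that the authors summarized and normalized by RMA, which the submitters' processing notes name with no version, after quality control with the affy package. No counts exist, so the number of arrays limits the precision. The table held 45101 probe sets, with values from 1.71 to 14.64 and sorted arrays within 0.018 of each other, so no further normalization was applied. After 64 AFFX controls were left out, 45037 were fitted with limma 3.58.1 in R 4.3.3 (group means over 12 arrays, 8 residual degrees of freedom, eBayes, Benjamini-Hochberg). The methods name Partek and the same threshold, and take for each gene the probe set with the smallest adjusted p, which was tried as an alternative. Symbols came from the platform annotation: 34945 probe sets had 1 symbol, 932 several and 9160 none, and 34741 were matched to RefSeq by gene number. Groups followed the labels, and a further allele that all groups share is not reported here. The members and gene lists were chosen with earlier results of these data known. Described in full were Cdk1, Foxm1 and Mki67, the 4 largest rises and falls among called genes in each of the first 3 comparisons (mt-CCs against fl-CCs, p53 R175H against EV, EV against fl-CCs) and, in each further list, up to 2 called genes in each direction with the greatest change in mt-CCs. Other values were chosen after they were seen. Promoter windows were searched for exact letters in Python 3.11.15, 1 window per gene. Alternatives were the arrays in the fit, a replicate block, array weights, variance moderation or an intensity trend, dropping dim probe sets, other scaling, other probe sets, a fold limit of 0.5, each array left out and, for promoters, the 150 bases before the start. The fit was also tested on simulated data.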

Additional observations from a re-analysis of the deposited data

Results flagged for a closer look

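For 13 mitotic genes, the difference between mt-CCs and fl-CCs was not the same as that between p53 R175H and EV, by the limma test of the difference of differences (log2, ± SE), which is why they are listed. They are 5 of 39 above 0 and 8 below, where 16.1% and 15.9% of all genes were called, so the share is near that of all genes. Without fl-CCs replicate 1 the counts were 10 above 0 and 5 below, where 15.8% and 15.4% of all genes were called. Among kinases and CDK1, the value was Plk1 -1.36 ± 0.27 (adjusted p = 0.00265), Plk4 -0.61 ± 0.21 (adjusted p = 0.0485), Aurka -0.53 ± 0.18 (adjusted p = 0.0435) and Cdk1 0.62 ± 0.19 (adjusted p = 0.0288). At centromeres and kinetochores it was Spc25 -1.16 ± 0.21 (adjusted p = 0.00149), Bub1 -0.86 ± 0.25 (adjusted p = 0.0228), Incenp -0.72 ± 0.14 (adjusted p = 0.00203), Birc5 0.78 ± 0.25 (adjusted p = 0.0371) and Cenpf 1.27 ± 0.17 (adjusted p = 0.000149). In cytokinesis and spindle genes it was Ect2 -1.26 ± 0.18 (adjusted p = 0.000268), Kif23 -0.63 ± 0.21 (adjusted p = 0.0474), Racgap1 0.88 ± 0.23 (adjusted p = 0.0144) and Hmmr 0.94 ± 0.20 (adjusted p = 0.00354). A negative value means that the gene was lower in mt-CCs, relative to their control, than in p53 R175H cells relative to theirs. Without fl-CCs replicate 1, Plk4 (-0.43, adjusted p = 0.0716), Aurka (-0.40, adjusted p = 0.0842) and Kif23 (-0.43, adjusted p = 0.0628) were no longer called, and these 3 were also lost without most other single arrays. Cdk1, Birc5 and Bub1 were each lost in at least 2 of the fits with another single array left out. Hmmr was called at 1 of its 5 probe sets. Incenp was also called only at the probe set used, and its others gave -0.72 ± 0.25 (adjusted p = 0.0519, limma), -0.19, -0.11 and 0.05. Second probe sets of Racgap1 (0.10 ± 0.23), Spc25 (-0.14 ± 0.19) and Bub1 (-0.33 ± 0.38) were not called either. EV cells were lower than fl-CCs in 12 of these 13 genes and in 36 of all 39, where 7.24% of all genes were called lower. Both groups enter the difference of differences, so that count is not independent of how the 13 were chosen. The cause was not tested.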

How the results depend on the processing

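The 55 called single values of the named and flagged genes were recomputed under 23 settings. Of 1200 such values, 1089 kept their direction and call, 111 kept their direction without the call and 0 reversed. Values that were not called are outside this count, and some did reverse. For mt-CCs against fl-CCs, Foxm1 moved from 0.11, not called, to -0.53, called lower, with the probe set of smallest p. In the difference of differences, Anln moved from -0.59, not called, to 1.64, called, with the same choice. The 36 genes lower with EV came to between 30 and 37 with 1 array left out, and the 28 lower with p53 R175H than in fl-CCs to between 20 and 30. With only the 6 compared arrays they came to 28 and 22. For mt-CCs against fl-CCs, the 10 genes called higher became 4 with only the 6 compared arrays in the fit, 6 without variance moderation, 17 with array weights and 5 with a log2 difference of at least 0.5. For p53 R175H against EV, the 1 gene called lower became 2 with an intensity trend, with array weights or with the probe set of smallest p. For the difference of differences, 5 above 0 became 3 without moderation and 9 with array weights, and 8 below 0 became 4 and 5. Leaving out 1 array at a time gave, for mt-CCs against fl-CCs, 4 to 19 higher, 3 to 6 lower and a median of 0.056 to 0.32. For p53 R175H against EV it gave 7 to 14 higher, 0 to 2 lower and a median of 0.15 to 0.33. For EV against fl-CCs the median ran from -0.92 to -0.62, and for p53 R175H against fl-CCs from -0.77 to -0.45. For the difference of differences it gave 3 to 10 above, 4 to 10 below and a median of -0.34 to -0.08. The 19, the 0.32, the -0.62, the -0.45 and the 10 above 0 came without fl-CCs replicate 1. On that array the median of the 39 genes lay 0.34 above its group, and the cause of that offset was not tested. Replicate numbers did not pair the arrays (correlations of deviations -0.09 to 0.058 over 18 pairs of equal number). With the number as a replicate block, counts were 10 and 5, 13 and 1, 36 and 28, with Cdc25c in place of Cenpa in mt-CCs, and the difference of differences had 5 above, with Cdc25c in place of Cdk1, and 7 below, without Kif23. Scaling moved the median of all genes by at most 0.011. In the 150 bases before the start, the share of promoters with a CHR was 25.8% in place of 80.6%, because most matches lie after that stretch. No detection calls were used, so the level of 5 for background is a choice.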
